A study of Mus musculus with 4 samples.

Results

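The genes described here are 37 markers of dividing cells: 14 genes of DNA replication (the S list) and 23 genes of G2 and mitosis (the mitosis list). They were taken by symbol from 4 single-cell RNA matrices of mouse lung adenocarcinoma, and all 37 were among the 28006 features of each matrix. Tumours of 2 genotypes were compared, each with 1 library of all cells and 1 library from which magnetic beads had removed leukocytes (CD45+) and endothelial cells (CD31+), called before and after depletion here. All mice were of mixed 129/B6 strain and carried, among their engineered alleles, p53frt, a p53 allele that Flp recombinase deletes, and Rosa-FSF-CreERT2, a tamoxifen-dependent Cre that Flp switches on. KP mice were Foxa1flox/+ and Foxa2flox/+, so they kept a copy of each gene that Cre does not delete, while KPF1F2 mice were labelled Foxa1flox and Foxa2flox. Flp was delivered by Ad5-mSPC-FlpO, an adenovirus that expresses it from the surfactant protein C promoter of alveolar type 2 cells, so Flp and later Cre acted only in the cells this virus reached and in their descendants. Every mouse, controls included, received 4 daily tamoxifen injections at 120 mg/kg from week 10, and tumours were collected 12 weeks after initiation. No age is given in the sources used here for these mice. The series asks what Foxa1 and Foxa2, forkhead factors of endodermal tissues, do for growth in this tumour, and the comparisons here ask how many tumour cells of each genotype carried replication or mitosis transcripts and how many of these each cell held.

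Cells replicate their DNA in S phase and divide in mitosis, and the transcripts for each step are made shortly before they are needed. Before S phase Cdc6 loads the ring-shaped helicase built from Mcm2 to Mcm7, which Gins2 helps to activate; Pcna is the sliding clamp of the polymerases, Rrm1, Rrm2, Tyms and Dut supply nucleotides, and Slbp binds histone messenger RNA. In G2 and mitosis, Cdk1 with cyclins A and B starts division, Aurora and Polo kinases and kinesins build the spindle, centromere proteins attach chromosomes to it, and Ube2c and Cdc20 serve the ubiquitin ligase that ends mitosis. Many S phase promoters are bound by E2F factors, and many mitosis promoters carry a cell cycle homology region (CHR), which the DREAM complex binds in resting cells and B-MYB binds in dividing ones.

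The promoters of the lists differed in motifs, which played no part in choosing the members. RefSeq promoter windows on build GRCm38.p6, from 250 bases before to 50 bases after the annotated start, were found for 32 of the 37 members; Ccna2, Aurkb, Tpx2, Mcm4 and Gins2 had no entry in the table used. The CHR core TTTGAA, read on both strands, was in 15 of 20 mitosis members (75%) and in 1 of 12 S members (8.33%), against 20.2% of 27025 genes. The CCAAT box, CCAAT on both strands, was in 18 of 20 mitosis members (90%) and 9 of 12 S members (75%), against 41.1% of all genes. The E2F cores TTTGGCG and TTTCCCG were in 5 of 12 S members (41.7%) and 2 of 20 mitosis members (10.0%), against 5.55% of all genes. No motif contains another, and a match describes the letters only. The sequences shown are the 170 bases before the start of the 3 mitosis members of highest mean level in epithelial-like cells with a CHR there, and of the 3 S members chosen likewise for E2F, each read 5′ to 3′ on the gene's strand with the motif or its reverse complement in capitals; levels are counts of transcript 3′ ends, which do not scale with gene length.
Ube2c, chr2:164769759-164769928, plus strand, CHR: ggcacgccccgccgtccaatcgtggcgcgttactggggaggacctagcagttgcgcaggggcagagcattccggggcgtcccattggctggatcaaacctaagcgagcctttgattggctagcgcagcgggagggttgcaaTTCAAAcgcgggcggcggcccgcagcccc
Mki67, chr7:135716380-135716549, minus strand, CHR: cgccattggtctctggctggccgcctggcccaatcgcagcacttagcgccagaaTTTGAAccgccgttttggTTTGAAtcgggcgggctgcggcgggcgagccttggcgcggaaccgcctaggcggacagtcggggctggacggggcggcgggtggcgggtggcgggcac
Cdc20, chr4:118437344-118437513, minus strand, CHR: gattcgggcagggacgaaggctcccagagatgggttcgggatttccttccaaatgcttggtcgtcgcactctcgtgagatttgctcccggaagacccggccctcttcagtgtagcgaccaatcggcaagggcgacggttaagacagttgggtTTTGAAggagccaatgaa
Mcm7, chr5:138171884-138172053, minus strand, E2F: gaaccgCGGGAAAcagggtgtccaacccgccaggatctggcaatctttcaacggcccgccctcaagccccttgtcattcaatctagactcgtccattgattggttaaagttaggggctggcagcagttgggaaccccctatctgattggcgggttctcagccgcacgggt
Mcm6, chr1:128359706-128359875, minus strand, E2F: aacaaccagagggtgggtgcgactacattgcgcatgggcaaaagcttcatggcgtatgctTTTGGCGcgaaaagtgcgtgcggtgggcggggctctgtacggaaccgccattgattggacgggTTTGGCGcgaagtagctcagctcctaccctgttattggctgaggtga
Mcm5, chr8:75109339-75109508, plus strand, E2F: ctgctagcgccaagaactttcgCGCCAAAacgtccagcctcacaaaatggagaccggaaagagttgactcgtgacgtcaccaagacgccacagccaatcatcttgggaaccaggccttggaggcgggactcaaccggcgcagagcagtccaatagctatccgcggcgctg
Ube2c carries 1 CHR, 29 bases before its start, and Mki67 carries 2, at 116 and 98 bases before the start. The E2F core of Mcm6 occurs 2 times, at 110 and 47 bases before the start.

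The 4 libraries held 47805086 to 63010016 unique molecular identifiers (UMIs, counted transcripts), and 2475 to 3616 cells per library were kept. Epithelial-like cells, the class that holds the tumour, numbered 678 (KP) and 198 (KPF1F2) before depletion and 2615 and 1876 afterwards. All 8 general epithelial markers were present in that class in every library, and its alveolar type 2 markers summed to 57353.5 to 136798 CPM, the UMIs of a gene or list scaled to a common library total. The genotypes clustered apart: KP cells lay mainly in clusters 1, 3, 5, 10 and 11 and KPF1F2 cells mainly in clusters 0, 7 and 8. Foxa1 and Foxa2 were listed at 0 UMIs under their own identifiers in these cells in all libraries. The added feature Foxa1_2, whose position in the gene is not given in the sources used here, stood at 17.1 and 16.7 CPM in KP and 10.5 and 3.58 CPM in KPF1F2, before and after depletion. Foxa1_1, another such feature, ran the other way, at 4.22 and 2.70 CPM in KP and 5.24 and 7.91 CPM in KPF1F2. Library pairs shared 6 to 16 cell barcodes. With 1 library per group there is no replicate, so no test was made, every comparison sets 1 library against another, and the 95% intervals hold nothing but counting error. The number in the title was 18385 for KPF1F2 before depletion and 18836 for the other 3 libraries, and whether the libraries of a genotype share mice is not given in the sources used here.

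In epithelial-like cells, mitosis transcripts were more abundant in KPF1F2 than in KP at either stage, while S transcripts were close between the genotypes. The mitosis list summed to 141 CPM (136 to 147) in KP and 216 CPM (204 to 229) in KPF1F2 before depletion, and to 175 CPM (171 to 179) and 286 CPM (281 to 291) after it. These are ratios of 1.53 and 1.64. The S list summed to 234 CPM (228 to 242) and 253 CPM (240.0 to 267) before depletion, and to 234 CPM (229 to 238) and 250.3 CPM (246 to 255) after it. A few cells with many transcripts and many cells with few cannot be told apart in such sums, so the cells themselves are taken up further on. RNA of other cell types in this class differed too: the 6 fibroblast markers summed to 59.1 and 4.12 CPM before depletion and to 88.8 and 11.8 CPM after it, the 8 alveolar macrophage markers to 187 and 132, then 22.2 and 27.6 CPM, and the 5 T cell markers to 9.56 and 3.55, then 0.67 and 1.15 CPM. The fibroblast sum was higher in KP at both stages. The alveolar macrophage and T cell sums were higher in KP before depletion and in KPF1F2 after it. The part of such RNA in the mitosis list was not tested.

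Within the mitosis list, the size of the difference varied by role. Mki67, the nuclear antigen of cycling cells, and Top2a, the topoisomerase that untangles chromosomes, together summed to 17.6 CPM in KP and 39.8 CPM in KPF1F2 before depletion, and to 22.1 and 51.9 CPM after it. The spindle genes Nusap1, Kif11, Tpx2 and Hmmr summed to 12.7 and 26.4 CPM before, and 16.4 and 33.7 CPM after. These groups had ratios of 2.05 to 2.35, above the 1.12 and 1.33 of the centromere and kinetochore genes Cenpa, Cenpe and Cenpf and the 1.30 and 1.22 of the checkpoint kinases Bub1 and Bub1b. Cyclins and mitotic kinases lay between, with 28.5 against 41.2 CPM before depletion and 27.5 against 50.9 CPM after it. So did Cdc20 and Ube2c of the anaphase promoting complex, with 27.4 against 41.2 CPM and 37.8 against 53.9 CPM.

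**Figure D1:**
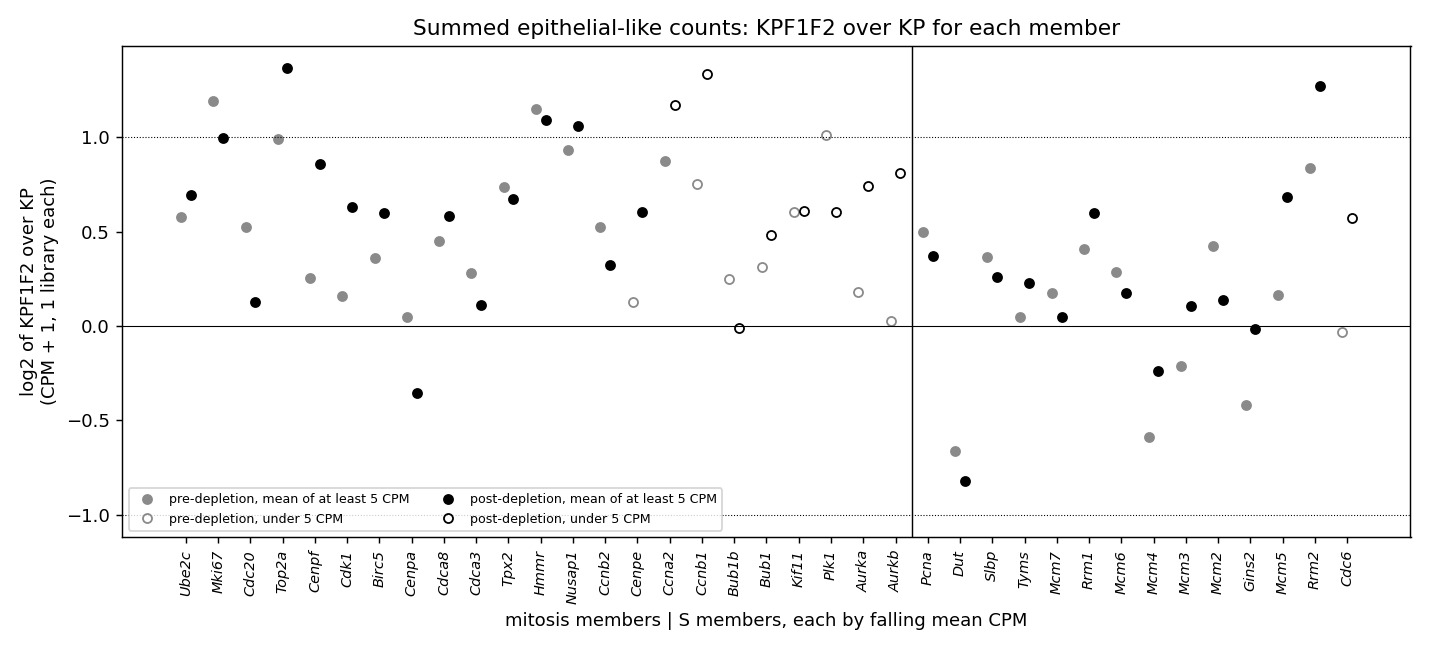
Each point is the log2 ratio of KPF1F2 over KP (CPM + 1, summed epithelial-like counts, 1 library per genotype) for a member before or after depletion, as the legend gives; filled points had a mean of at least 5 CPM. Mitosis members lie mostly above 0, with Hmmr past 1 at both stages, while Dut is the lowest filled point at both.

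Of single mitosis members, Mki67 (chromosome 7, 135689784 to 135716361) had 8.70 CPM in KP and 21.1 CPM in KPF1F2 before depletion, and 13.1 and 27.2 CPM after it; gene positions are on GRCm38. Its log2 ratios, taken on CPM + 1 here and below, were 1.19 and, just short of a 2-fold difference, 1.00. Top2a (chromosome 11, 98992943 to 99024189) stood at 8.92 and 18.7 CPM, then 8.98 and 24.7 CPM, with log2 ratios of 0.99 and 1.37. The lower KPF1F2 value exceeded the higher KP value for both genes. Hmmr, a microtubule-associated protein of the spindle (chromosome 11, 40701395 to 40733422), stood at 2.83 and 7.48 CPM, then 4.37 and 10.5 CPM. Its log2 ratios of 1.15 and 1.09 made it the 1 member of the 27 compared at both stages that was at least 2-fold higher at both, where 3.14% of 9445 genes compared were. Ube2c, the ubiquitin-conjugating enzyme of mitotic exit, had the highest level of the list, at 14.8 and 22.6 CPM, then 22.4 and 36.9 CPM.

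Other abundant members differed less or not the same way at both stages. Cdc20, the activator of the anaphase promoting complex, stood at 12.5 and 18.5 CPM before depletion and at 15.4 and 16.99 CPM after it. Cenpf, a kinetochore protein, stood at 9.72 and 11.8 CPM, then 13.5 and 25.3 CPM. Cdk1, the kinase that starts mitosis, stood at 13.1 and 14.8 CPM, then 11.7 and 18.6 CPM, and Birc5, the survivin subunit of the chromosomal passenger complex, at 10.8 and 14.2, then 11.5 and 18.0 CPM. Cenpa, the histone that marks centromeres, stood at 11.5 and 12.0 CPM before depletion and at 16.0 in KP and 12.3 in KPF1F2 after it, the other way round. The others compared at one or both stages, Ccna2, Ccnb2, Cdca3, Cdca8, Cenpe, Nusap1 and Tpx2, had log2 ratios of 0.28 to 0.93 before depletion and 0.11 to 1.06 after it. Ccnb1, Bub1, Bub1b, Kif11, Plk1, Aurka and Aurkb, and Cdc6 of the S list, had means under 5 CPM at both stages and were not compared singly.

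Counted over the list, 15 of 15 mitosis members compared before depletion were higher in KPF1F2 and 14 of 15 after it, against 57.0% and 56.2% of all genes compared, with median log2 ratios of 0.53 and 0.63 against 0.08 and 0.07 over all genes. At both stages 13 of 14 were higher, where 45.0% of all genes were. The members are not independent of one another, since most of their UMIs lay in the same few cells, described below. At least 2-fold higher were 2 of the 28 members compared before depletion and 4 of 28 after it, against a background of 5.42% and 5.09% of genes, and no member was 2-fold lower (background 4.06% and 5.11%). Mki67 and Hmmr passed that fold before depletion, and Hmmr, Nusap1, Top2a and Rrm2 after it. Of these, Hmmr, Nusap1 and Rrm2 were under 5 CPM in KP and were compared only through their KPF1F2 level. The count of 15 before depletion includes Cenpa, which was lower in KPF1F2 under scaling by trimmed mean of M-values (TMM) or DESeq2 size factors. With equal weight for each cell the mitosis median before depletion was 0.17, and Cenpa, Cdc20, Cdca3, Cenpf and Ube2c were then lower in KPF1F2.

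S members differed from one another in direction. Pcna (chromosome 2, 132249162 to 132253314) had the highest mean level, 40.1 and 57.1 CPM before depletion and 35.7 and 46.4 CPM after it, a log2 ratio of 0.50 and 0.37. Dut, which removes dUTP before it can enter DNA (chromosome 2, 125247190 to 125258608), ran the other way, at 50.3 CPM in KP and 31.4 CPM in KPF1F2, then 53.8 and 30.1 CPM, with log2 ratios of −0.66 and −0.82. Both KP values of Dut exceeded both KPF1F2 values. Slbp stood at 32.3 and 41.9, then 30.1 and 36.2 CPM, and Tyms, thymidylate synthase, at 20.8 and 21.5, then 20.7 and 24.4 CPM. The helicase genes with Cdc6 and Gins2 summed to 71.5 and 72.4 CPM, then 77.2 and 84.1 CPM, ratios of 1.01 and 1.09. Among them Mcm7 stood at 15.8 and 18.0, then 18.4 and 19.0 CPM, and Mcm6 at 12.1 and 14.96, then 14.8 and 16.8 CPM. Mcm2 to Mcm5 and Gins2 had log2 ratios of −0.59 to 0.42 before depletion and −0.24 to 0.68 after it. Tyms before depletion turned to the lower side under TMM or DESeq2 scaling, and Mcm7 after depletion under DESeq2 scaling.

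Both subunits of ribonucleotide reductase were higher in KPF1F2. Rrm2, its cell cycle regulated subunit (chromosome 12, 24708241 to 24714146), stood at 4.48 and 8.79 CPM before depletion and 2.79 and 8.14 CPM after it, log2 ratios of 0.84 and 1.27. Rrm1 stood at 15.003 and 20.2, then 13.4 and 20.9 CPM. The median log2 ratio of the S list was 0.17 and 0.18 over 13 members compared, of which 9 and 10 were higher in KPF1F2 (57.0% and 56.2% of all genes), and 9 of 13 were higher at both stages (45.0% of all genes).

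A handful of cells held most of the mitosis transcripts. Each cell was thinned to 3000 UMIs so that deep and shallow cells could be set side by side, which left out 111, 13, 292 and 328 cells of lower depth (KP and KPF1F2 before depletion, then KP and KPF1F2 after it, the order used below). The cells left out were not spread evenly over the clusters. After depletion cluster 11 in KP (244 cells) and cluster 29 in KPF1F2 (124 cells) each kept under 50 cells. Cells with 3 or more mitosis UMIs after thinning numbered 12 of 567 (KP) and 6 of 185 (KPF1F2) before depletion, then 54 of 2323 and 50 of 1548. They held 63.9% and 88.0% of the mitosis UMIs of all epithelial-like cells before depletion and 71.2% and 88.2% after it, but only 3.45% to 4.49% of all UMIs. The rest of the epithelial-like cells stood at 53.2 CPM in KP and 27.0 CPM in KPF1F2 before depletion, and at 52.1 and 35.4 CPM after it. This rest is set by a cut on the same list and includes the cells too shallow to thin. More KP cells lay just under the cut, as given below, so no order of the genotypes is read from the rest. Neutrophil-like cells, a class that does not divide once mature, also stood higher in KP, at 109 CPM against 42.7 CPM in KPF1F2. The S list was far less concentrated: its own cells with 3 or more UMIs held 14.2% to 25.4% of S UMIs.

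At this threshold these cells were not detectably more frequent in KPF1F2 than in KP. Their share was 2.12% (1.10 to 3.67) in KP and 3.24% (1.20 to 6.93) in KPF1F2 before depletion, a ratio of 1.53 (0.58 to 4.03), and 2.32% (1.75 to 3.02) and 3.23% (2.41 to 4.24) after it, a ratio of 1.39 (0.95 to 2.03). Both intervals include 1. Within these cells the mitosis list stood at 2092 CPM in KP and 4924 CPM in KPF1F2 before depletion, and at 3604 and 5624 CPM after it. These levels are a description, since the cells were chosen by the same UMIs. They depend on how many cells lay near the cut, which differed between the genotypes. The median cell held 49 mitosis UMIs (KP) and 110 (KPF1F2) before depletion, then 65.5 and 194.5. Their median depth was 24412.5 and 23853.5 UMIs before depletion and 21839.5 and 36558.5 after it, so after depletion the KPF1F2 cells were also the deeper ones, and the part of depth in the UMI number was not tested.

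Most of these KPF1F2 cells lay far above 3 UMIs, and many KP cells lay close to it. In KPF1F2, 5 of 6 cells before depletion and 41 of 50 after it had 8 or more mitosis UMIs after thinning. In KP, 6 of 12 and 25 of 54 cells had. At 8 or more UMIs the share of epithelial-like cells was 1.06% in KP and 2.70% in KPF1F2 before depletion (ratio 2.55, 0.79 to 8.27) and 1.08% and 2.65% after it (ratio 2.46, 1.503 to 4.03); this level was chosen after the values were seen. Near the threshold of 3, KP after depletion had 29 cells with exactly 2 UMIs and 12 with exactly 3, and KPF1F2 had 15 and 2. Before depletion KPF1F2 had 6 cells with exactly 1 UMI, 0 with 2 to 6 and 6 with 7 or more, so its values left a gap. A class set by such a threshold is a range of values, and whether it is a type of its own was not tested.

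**Figure D2:**
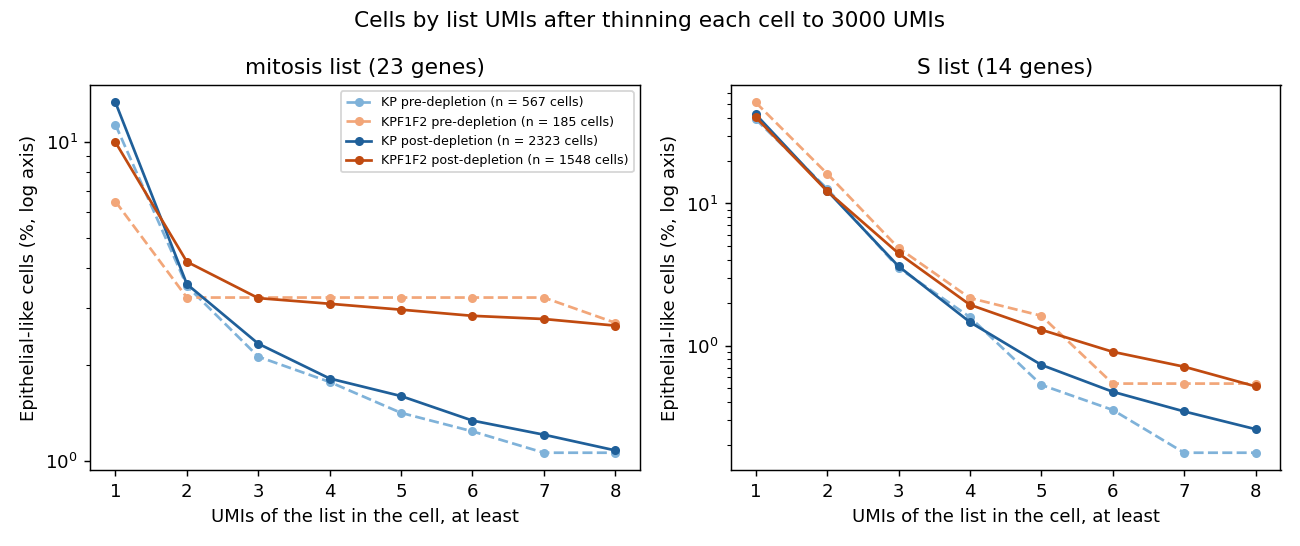
The percentage of epithelial-like cells (log axis) with at least the given number of mitosis (left) or S (right) UMIs after thinning each cell to 3000 UMIs, for the 4 libraries. From 3 to 8 mitosis UMIs the KP lines drop from 2.32% and 2.12% to 1.08% and 1.06%, while the KPF1F2 lines stay between 3.24% and 2.65%.

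The pre-depletion values rest on very few cells. The KPF1F2 cell with the most mitosis UMIs held 417 of 1154, and without it the list stood at 139 CPM in that library in place of 216. The KP cell with the most held 576 of 2642, and without it KP stood at 111 CPM in place of 141. The ratio of the libraries without these 2 cells was 1.26 in place of 1.53. After depletion, leaving out the highest cell of each library left 166 and 269.9 CPM and a ratio of 1.62. Markers of most other cell types were low in the median of these cells: the summed 5 T cell, 7 macrophage and 6 fibroblast markers each had a median of 0 UMIs in all 4 libraries, the 8 alveolar macrophage markers medians of 3 and 4 UMIs before depletion and 0 after it, the 6 B cell markers medians of 0 to 1.5 UMIs and the 6 endothelial markers medians of 0 to 0.5 UMIs. The 7 neutrophil markers had a median of 3.5 UMIs in KPF1F2 before depletion, 142 CPM against 29.3 CPM in the other epithelial-like cells, and of 0 in the other libraries. Single cells reached 126 alveolar macrophage UMIs in KP before depletion and 155 fibroblast UMIs in KP after it. The part of such RNA or of mixed droplets was not tested. Their epithelial markers had medians of 4595 to 6025 CPM. The doublet score had medians of 0.049 to 0.062 in these cells, against 0.041 to 0.054 in cells with no mitosis UMI.

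Most single mitosis members had most of their UMIs in these cells, which is a description, since the cells were chosen by the sum of the list. After depletion 95.1% of the Ube2c UMIs of KPF1F2 cells deep enough to thin were in them and 86.1% in KP, and for Mki67 91.3% and 82.3%. Cenpa was the main exception in KP, with 27.7% and 44.3% of its UMIs in these cells, against 82.8% and 82.3% in KPF1F2. In the other epithelial-like cells Cenpa stood at 8.40 and 9.24 CPM for KP against 2.15 and 2.28 CPM for KPF1F2. A Cenpa UMI after thinning was found in 3.35% of KP and 2.16% of KPF1F2 epithelial-like cells before depletion (15.04% and 7.58% without thinning), below the 6.25% and 6.91% of neutrophil-like cells. In summed counts Cenpa stood at 22.7 CPM in KP and 24.4 CPM in KPF1F2 neutrophil-like cells. What the Cenpa UMIs of the other epithelial-like cells stand for was not tested.

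The S members, which played no part in choosing these cells, were also more abundant in them in every library. The S list stood at 949, 1368, 726 and 1152 CPM in cells with 3 or more mitosis UMIs and at 201, 209, 216 and 208 CPM in the others. Of these cells 5 of 12, 3 of 6, 22 of 54 and 21 of 50 also had 3 or more S UMIs, against 2.70% to 3.35% of the others. Rrm2 was the S member most tied to them: 81.0% and 91.5% of its UMIs before depletion and 49.6% and 83.1% after it lay in these cells. For Slbp the shares were 5.38% to 9.95% and for Pcna 7.20% to 14.4%. In the other cells Pcna stood at 34.2 to 51.0 CPM and Rrm2 at 0.78 to 1.45 CPM.

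Cells chosen by Mki67 alone differed between genotypes in what else they held. After depletion 48 KP and 47 KPF1F2 epithelial-like cells had an Mki67 UMI after thinning, 2.07% (1.53 to 2.73) and 3.04% (2.24 to 4.02). Neutrophil-like cells of the libraries before depletion gave 5.36% and 1.22%, so the KP share alone was not above that class. The neutrophil-like KP value comes from 112 cells of another library, so it sets no firm floor. Of the Mki67 cells, 33.3% in KP and 63.8% in KPF1F2 had a Top2a UMI, against 1.10% and 0.80% of cells without Mki67. For Tpx2, a spindle assembly factor, the shares were 18.8% and 48.9%, and for Cdca8, a passenger complex subunit, 16.7% and 46.8%. Rrm2 was found in 27.1% and 25.5% of Mki67 cells, and Slbp in 14.6% and 12.8%, against the 8.70% and 9.26% of cells without Mki67. Without thinning, 4.21% and 5.81% of cells had an Mki67 UMI.

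At least 1 mitosis UMI was no more common in epithelial-like than in neutrophil-like cells. After thinning 11.3% of KP and 6.49% of KPF1F2 epithelial-like cells before depletion, and 13.3% and 9.95% after it, had at least 1 mitosis UMI (42.3%, 38.4%, 38.3% and 34.0% without thinning), the reverse of the order of the CPM, so no order of the genotypes is read from this share. Neutrophil-like cells gave 20.5% in KP and 10.6% in KPF1F2 at median depths of 3833 and 3606 UMIs, against 24071 and 22596 UMIs for the epithelial-like cells before depletion. The epithelial shares were at or below these neutrophil-like shares, which differed between the libraries in the same direction. The neutrophil-like cells were shallower before thinning and came only from the libraries before depletion, so their shares set no firm floor. At 3 or more mitosis UMIs, neutrophil-like cells gave 2 of 112 in KP (1.79%) and 0 of 246 in KPF1F2, which allows a share of up to 1.49%. The KP share of 2.12% before depletion is not clear of this 1.79%. That value rests on 2 cells, with an interval of 0.22 to 6.30, so it is an uncertain floor. The highest KP neutrophil-like cell held 25 mitosis UMIs without thinning, and whether such cells divide or are mixed was not tested. At least 1 S UMI was found in 39.2% and 51.4% of epithelial-like cells before depletion and in 42.4% and 40.4% after it (79.8%, 84.3%, 76.6% and 76.9% without thinning), against 50% and 27.6% of neutrophil-like cells. At 3 or more S UMIs the shares were 3.53% and 4.86%, then 3.62% and 4.46%, against 8.93% and 3.25% of neutrophil-like cells, so at this threshold the S shares are not clear of background in either genotype beyond their counting error. At 1 S UMI the KPF1F2 epithelial-like shares lay above the neutrophil-like share and the KP shares below it. In KPF1F2 the interval of the mitosis share before depletion, from 1.20%, starts below the 1.49% that 0 of 246 allows.

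Within each genotype the cells rich in mitosis transcripts were unevenly spread over the clusters, which were computed without the cell cycle lists. In KP after depletion cluster 3, led by Gkn2, Gzme and Dcpp1, had 37 of 676 such cells (5.47%, 3.88 to 7.47), and cluster 1, led by Gzme, Mcpt1 and Onecut2, had 5 of 685 (0.73%, 0.24 to 1.70). Cluster 5, led by the alveolar genes Cbr2, Sftpa1 and Lyz1, had 2 of 418 (0.48%, 0.06 to 1.72), and cluster 10, led by Dlk1, had 7 of 285 (2.46%, 0.99 to 4.99). In KPF1F2 after depletion cluster 0, led by Sftpd, S100g and Sfta2, had 36 of 757 (4.76%, 3.35 to 6.52), cluster 8, led by Mcpt1, Krt7 and Msln, had 4 of 385 (1.04%, 0.28 to 2.64), and cluster 7, led by Retnla, Chia1 and Hc, had 9 of 332 (2.71%, 1.25 to 5.08). Clusters 1 and 8, both with Mcpt1 among their leading genes, had the highest CRE-ERT2 levels of these clusters after depletion, at 48.0 and 53.6 CPM. Cluster 5 stood at 12.3 CPM and cluster 7 at 0.90 CPM, so the share with mitosis transcripts did not order by CRE-ERT2. Before depletion cluster 3 had 2 of 114, cluster 10 had 5 of 90 and cluster 0 had 4 of 87, numbers too small to order them. Clusters 11 and 29 had too few cells deep enough to thin and are not given. Genes of dividing cells outside those lists may have been among the genes clustered, so these shares are a description.

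**Figure D3:**
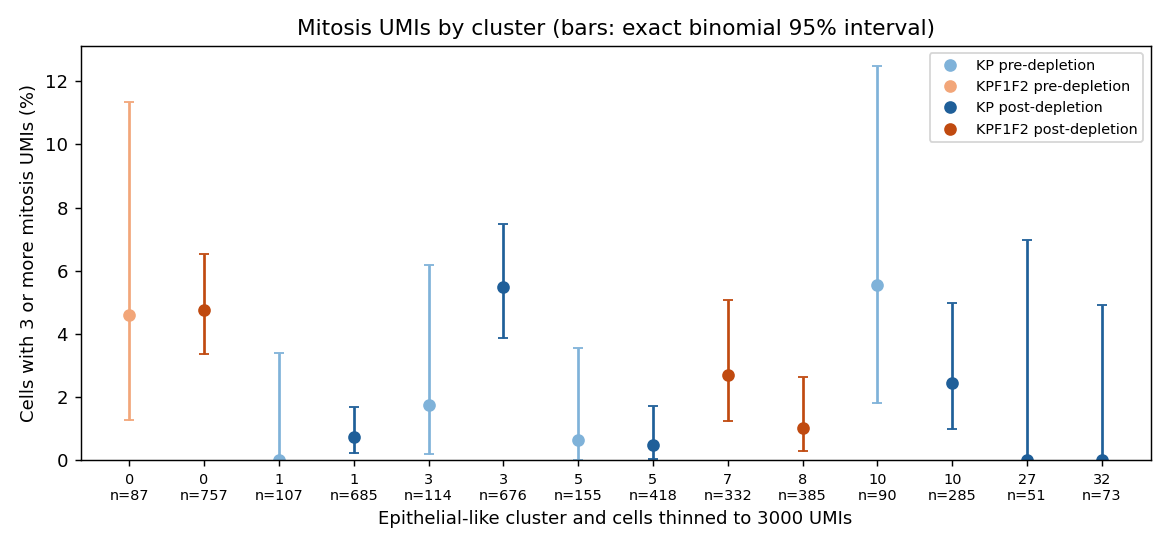
The percentage of cells with 3 or more mitosis UMIs in each epithelial-like cluster with at least 50 thinned cells per library, with exact binomial 95% intervals; the cells thinned are given under the cluster number. Cluster 3 in KP and cluster 0 in KPF1F2 sit at 5.47% and 4.76% after depletion, clusters 1, 5 and 8 at 1.04% or less.

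Epithelial-like cells were then divided by whether a CRE-ERT2 UMI was found, which can mark cells in which Flp had acted; a cell without such a UMI may still carry the transgene, and free RNA can give a UMI to one that does not. CRE-ERT2 was found in 254 of 678, 51 of 198, 838 of 2615 and 578 of 1876 cells. Those cells were deeper, with medians of 35821, 32671, 20950 and 34191 UMIs against 11061, 17909, 9732 and 12496.5 UMIs in cells without it. The higher mitosis level of KPF1F2 lay mainly in the cells without a CRE-ERT2 UMI, a difference between the subsets that was not tested. There the list stood at 107 CPM in KP and 266 CPM in KPF1F2 before depletion and at 142 and 345 CPM after it, ratios of 2.49 and 2.43. In cells with CRE-ERT2 it stood at 160 and 138 CPM before depletion and at 207 and 233 CPM after it, ratios of 0.86 and 1.13. Before depletion these ratios rest on 2 KPF1F2 cells with CRE-ERT2 and 4 without it that had 3 or more mitosis UMIs, and without the highest cell of each library they were 0.59 and 1.95.

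Member by member, cells without CRE-ERT2 had 16 of 16 mitosis members higher in KPF1F2 before depletion and 15 of 15 after it (54.5% and 49.4% of all genes), with medians of 1.30 and 1.19 against 0.05 and −0.01 over all genes. The members are not independent, since they share the same few cells. Before depletion 4 KPF1F2 cells without CRE-ERT2 held 91.8% of the mitosis UMIs of that subset. At least 2-fold higher were 11 of 16 and 10 of 15, against backgrounds of 4.08% and 5.2%. At both stages 6 of 15 mitosis members were (Nusap1, Tpx2, Ube2c, Hmmr, Top2a and Birc5), and Rrm2 of the S list, against 2.11% of genes. In cells with CRE-ERT2 the mitosis medians were −0.31 over 12 members before depletion and 0.12 over 15 after it, against 0.18 and 0.11 over all genes. Of the 24 members of both lists compared there before depletion, 1 was 2-fold higher and 4 were 2-fold lower (background 8.43% and 5.71%). Of the 27 compared after it, 0 were 2-fold higher and 1, of the S list, was 2-fold lower (background 5.83% and 6.18%). Top2a stood at 7.62 and 19.3 CPM, then 8.21 and 33.6 CPM in cells without CRE-ERT2, and at 9.62 and 17.8, then 9.73 and 16.7 CPM in cells with it, so it was higher in KPF1F2 in each of the 4 pairs. Mki67 was too, at 10.97 and 21.1, then 12.5 and 35.0 CPM without CRE-ERT2, and 7.48 and 21.1, then 13.7 and 20.2 CPM with it. Ube2c differed by subset: 11.3 and 33.4, then 15.9 and 44.9 CPM without it, and 16.8 and 5.76, then 28.7 and 29.7 CPM with it. S members had medians of 0.36 and 0.25 without CRE-ERT2 and 0.31 and 0.04 with it, and Dut was lower in KPF1F2 in each of the 4 pairs.

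**Figure D4:**
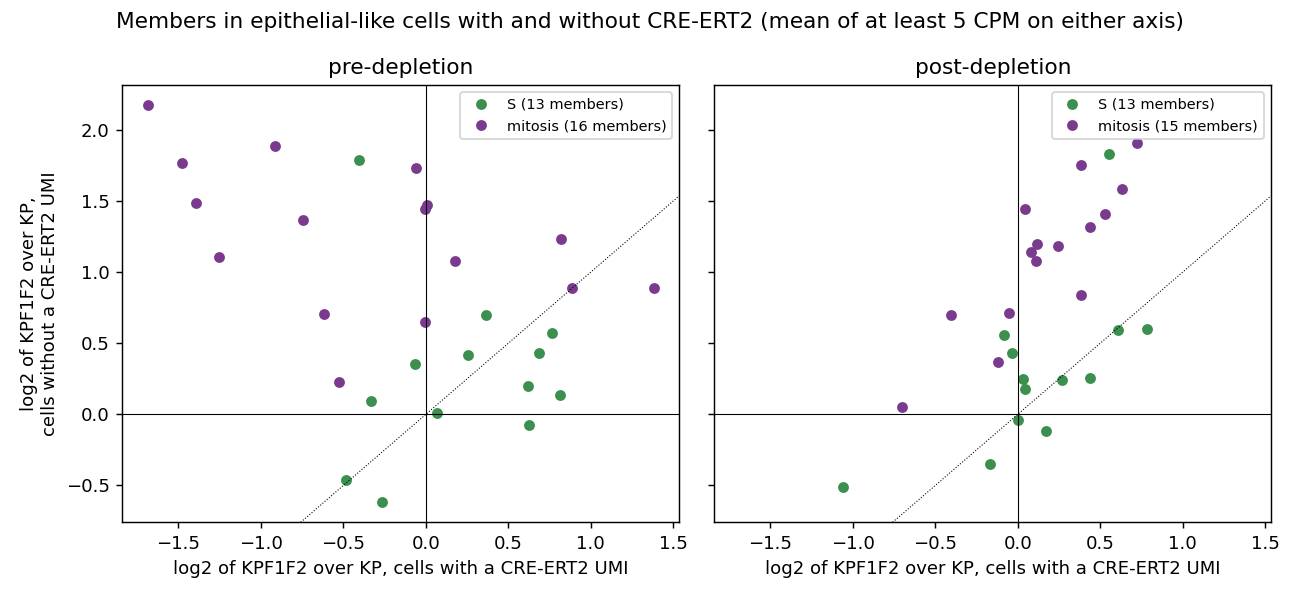
Log2 ratios of KPF1F2 over KP (CPM + 1) for members in epithelial-like cells with a CRE-ERT2 UMI (horizontal) and without one (vertical), before (left) and after (right) depletion; the dotted line marks equal ratios. Mitosis members lie mostly above the line at both stages, and S members scatter about it apart from Rrm2 at 1.79 and 1.83 on the vertical axis.

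The number of mitosis-rich cells was compared in the same subsets. After depletion 26 of 821 KP and 18 of 565 KPF1F2 cells with CRE-ERT2 had 3 or more mitosis UMIs, 3.17% (2.08 to 4.61) and 3.19% (1.90 to 4.99), a ratio of 1.01 (0.56 to 1.82). Without it they were 28 of 1502 and 32 of 983, 1.86% (1.24 to 2.68) and 3.26% (2.24 to 4.56), a ratio of 1.75 (1.06 to 2.88). Among cells of at least 15000 UMIs only, a limit set after the data were seen, the mitosis medians before depletion were −0.29 with CRE-ERT2 and 1.71 without it, and after depletion 0.10 and 0.84. Cells without a CRE-ERT2 UMI can be transgene-bearing cells of low depth or cells in which Flp had not acted, and how many of each the genotypes held was not tested. Another added feature, UPRT_short, had UMIs in 41 of 198 and 475 of 1876 KPF1F2 epithelial-like cells, at 185 and 206 CPM, and in 0 of 678 and 0 of 2615 KP cells. The genotypes thus differed in an added feature as well, and its relation to CRE-ERT2 and to the members was not tested.

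Most other classes held more of both lists than the epithelium. Before depletion the mitosis list stood at 607 CPM in KP and 817 CPM in KPF1F2 T cell-like cells, at 632 and 485 CPM in B cell-like cells, at 669.6 and 371 CPM in macrophage-like cells and at 352 and 446 CPM in alveolar macrophage-like cells. The genotypes filled different clusters in most classes: T cells lay in clusters 9 and 19 in KP and 16 and 21 in KPF1F2, B cells in 25 and 14, alveolar macrophages in 2 and 6, macrophages mainly in 15 and 13 in KP and 13 and 24 in KPF1F2, and fibroblasts mainly in 18 in KP and in both 18 and 20 in KPF1F2.

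T cell-like cells had more S transcripts in KPF1F2 and macrophage-like cells fewer mitosis transcripts. In T cell-like cells (756 and 603) the S list stood at 608 CPM (583 to 633) in KP and 1010.3 CPM (974 to 1048) in KPF1F2. All 14 S members were higher (45.0% of all genes), with a median log2 ratio of 0.66 against −0.05 over all genes, and 3 were at least 2-fold higher (background 1.57%): Mcm6 at 40.9 and 86.2 CPM, Cdc6 at 3.34 and 8.76 CPM and Rrm2 at 27.5 and 78.9 CPM. Cdc6 was compared only through its KPF1F2 level. Cells with 3 or more S UMIs were 96 of 600 (16.0%, 13.2 to 19.2) and 125 of 457 (27.4%, 23.3 to 31.7), a ratio of 1.71 (1.35 to 2.17), at median depths of 5360 and 4648 UMIs. Neutrophil-like cells, at 8.93% and 3.25%, differed between the libraries the other way. The mitosis list of T cell-like cells had a median of 0.44, with 21 of 22 members higher (45.0% of all genes), but Mki67 stood at 78.4 and 71.5 CPM. T cell-like cells with 3 or more mitosis UMIs were 4.50% and 5.47%, a ratio of 1.22 (0.72 to 2.07).

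In macrophage-like cells (436 and 605) all 22 mitosis members compared were lower in KPF1F2 (55.8% of all genes), with a median log2 ratio of −0.77 against −0.06 over all genes, and 6 were at least 2-fold lower (background 3.82%). Cenpe, a kinetochore motor, stood at 35.1 and 12.0 CPM, Cenpf at 33.9 and 11.8 CPM and Mki67 at 101 and 42.8 CPM. Cells with 3 or more mitosis UMIs were 32 of 387 (8.27%, 5.72 to 11.5) and 26 of 569 (4.57%, 3.01 to 6.62), a ratio of 0.55 (0.33 to 0.91). Their S list had a median of −0.10, and Pcna ran the other way, at 55.1 and 71.7 CPM. In alveolar macrophage-like cells (999 and 656) 19 of 22 mitosis members were higher (51.6% of all genes), with a median of 0.30, and Top2a (24.1 and 49.4 CPM) and Kif11 (4.88 and 12.2 CPM) were 2-fold higher (background 1.62%). Kif11 was compared only through its KPF1F2 level. Alveolar macrophage-like cells with 3 or more mitosis UMIs were 43 of 860 (5%) and 26 of 638 (4.08%). B cell-like cells had a mitosis median of −0.37, on 4 cells with 3 or more mitosis UMIs in each library. After depletion fibroblast-like cells stood at 644 CPM in KP and 364 CPM in KPF1F2 for mitosis. Of these UMIs 95.3% and 93.8% lay in the cells with 3 or more mitosis UMIs. Those were 5 of 90 and 10 of 370 cells, a ratio of shares of 0.49 (0.17 to 1.39). Fibroblast-like cells with 3 or more S UMIs were 11 of 90 (12.2%) and 12 of 370 (3.24%).

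**Figure D5:**
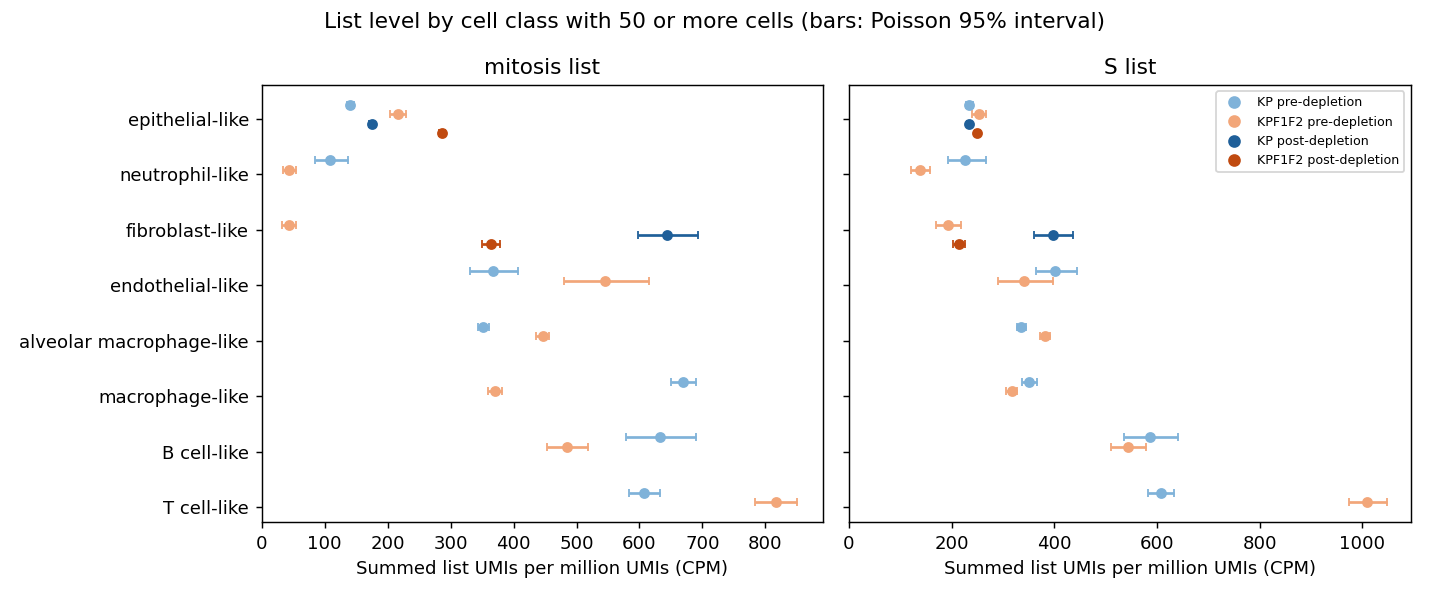
Summed UMIs of the mitosis (left) and S (right) list in CPM, for each class with 50 or more cells in the library, with Poisson 95% intervals. For mitosis KPF1F2 lies above KP in T cell-like cells (817 against 607 CPM) and below it in macrophage-like cells (371 against 669.6 CPM), and the highest S level is the 1010.3 CPM of KPF1F2 T cell-like cells.

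Other cell cycle genes in epithelial-like cells, taken from lists chosen for this work, did not move as a block. Of 40 other G2 and mitosis genes, 17 were compared before depletion and 19 after it, with medians of 0.18 and 0.29. Pttg1, securin, which keeps sister chromatids joined until anaphase, stood at 16.0 and 55.7 CPM, then 16.3 and 41.3 CPM, and Hjurp, the chaperone that loads Cenpa onto centromeres, ran the other way at 22.4 and 8.42, then 24.7 and 9.38 CPM. Kif23, a kinesin of cell separation, stood at 17.1 and 10.1, then 21.6 and 14.9 CPM. Of 28 other S phase genes, 14 and 16 were compared, with medians of −0.29 and −0.02; Tipin, which steadies replication forks, stood at 15.6 and 6.55, then 16.6 and 7.61 CPM. Atad2 was also lower in KPF1F2, at 21.3 and 13.5, then 23.2 and 16.9 CPM, and Hells, a chromatin remodeller, was higher, at 5.61 and 8.98, then 5.77 and 10.8 CPM. Of 28 G1 regulators, 23 were compared at each stage, with medians of 0.22 and 0.34. Ccnd1, cyclin D1, which drives entry into S phase, stood at 370.0 and 899.5, then 454 and 1140.2 CPM, with log2 ratios of 1.28 and 1.33, and Cdkn2c, an inhibitor of its kinases, at 4.70 and 14.96, then 2.70 and 10.0 CPM. E2f2, an E2F transcription factor, stood at 7.21 and 14.6, then 6.02 and 11.3 CPM. Of the 37 members 13 overlap an annotated gene on the other strand, 6 overlap one on the same strand and 22 overlap none; Ube2c with Tnnc2, Cdc20 with Elovl1 and Mcm7 with Cops6 are among the overlapping pairs. How strand was used in counting is not given in the sources used here, so reads of such pairs may be mixed.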

How the data were processed

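The deposited matrices hold raw UMI counts per feature and cell barcode; per the file headers they were made with Cell Ranger 6.0.0, and per the submitters' processing notes reads were mapped to mm10. Cells with at least 1000 UMIs, 500 genes and at most 20% mitochondrial UMIs were kept. Automatic doublet calls were under 0.5%, so the highest scores were removed at 0.8% per 1000 barcodes. Cells were clustered (scanpy 1.11.5, igraph 0.11.9, Leiden, 2000 variable genes without the cell cycle lists, 30 components, resolution 1), and a cluster was named when at least 3 markers of a set were 2-fold raised. Summed counts were compared as log2 of CPM + 1 for genes with a mean of at least 5 CPM. A gene low in 1 genotype can pass this limit through the other alone. Cells were thinned to 3000 UMIs. Intervals are exact binomial (Clopper-Pearson) for shares, exact Poisson for CPM and Katz for ratios of shares. TMM (edgeR 4.0.16) and DESeq2 1.42.0 served only as other scalings. No test was made, since each group has 1 library; the code was tested on simulated data. Values are given for Mki67, Top2a and Pcna, for the 6 mitosis and 6 S members of highest mean CPM and for any member 2-fold different at both stages, and up to 3 genes of each other list by fold; further members named were chosen after their values were seen. The members and lists were chosen with earlier results of these data known. One engineered allele that all groups share is not reported here.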

Additional observations from a re-analysis of the deposited data

Results flagged for a closer look

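The median log2 ratio of KPF1F2 over KP before depletion took opposite signs in several pairs of cell classes, and none of these differences was tested, since each genotype has 1 library at that stage. For the mitosis list the median was 0.53 in epithelial-like cells, against −0.37 in B cell-like and −0.77 in macrophage-like cells. Within the epithelium it was −0.31 in cells with a CRE-ERT2 UMI, against 1.30 in cells without one, 0.44 in T cell-like and 0.30 in alveolar macrophage-like cells. The value of 1.30 also stood opposite the B cell-like and macrophage-like medians, and so did those of T cell-like and alveolar macrophage-like cells. For the S list the median was 0.31 in epithelial-like cells with CRE-ERT2, 0.36 in those without it and 0.66 in T cell-like cells, against −0.95 in neutrophil-like cells, where the median of all genes was itself −0.68 and 6 members were compared.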

How the results depend on the processing

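Of 401 recomputed values, 328 stayed close to the reported one, 62 moved and 11 changed direction (for a ratio, counted where its reported interval excluded 1). The ratios that follow are of KPF1F2 over KP shares of cells with at least 1 UMI after thinning to 3000, before depletion unless said. Thinned to 1000 UMIs, the S ratio was 0.76 (reversed) before and 1.05 after depletion in epithelial-like cells, 0.65 (reversed) in those without CRE-ERT2, 1.34 in B cell-like, 0.64 in endothelial-like and 0.76 in neutrophil-like cells, and the mitosis ratio 1.51 before and 0.96 after depletion in epithelial-like cells, 2.99 in those with CRE-ERT2, 0.996 after depletion in those without it and 0.65 in macrophage-like cells. Thinned to 5000, the S ratio was 1.02 in T cell-like, 0.96 in alveolar macrophage-like and 1.05 in epithelial-like cells. With at least 2 UMIs, the mitosis ratio was 1.18 after depletion in epithelial-like cells and 1.38 in those without CRE-ERT2 (both reversed), 0.535 in B cell-like, 0.83 in T cell-like, 0.59 in macrophage-like and 0.11 in neutrophil-like cells, and the S ratio 1.31 in T cell-like, 1.15 after depletion in epithelial-like cells with CRE-ERT2, 0.55 in fibroblast-like and 0.42 in neutrophil-like cells. With at least 3, the mitosis ratio was 1.53 before and 1.39 after depletion in epithelial-like cells, 1.95 and 1.01 in those with CRE-ERT2, 1.75 after depletion in those without it (these go the other way from at least 1 UMI), 0.46 in B cell-like, 1.22 in T cell-like and 0.55 in macrophage-like cells, and the S ratio 1.23 after depletion in epithelial-like cells, 1.40 in those without CRE-ERT2, 1.71 in T cell-like, 0.27 after depletion in fibroblast-like, 0.86 in macrophage-like and 0.36 in neutrophil-like cells. Without Pcna, Dut, Slbp and Tyms the S ratio was 0.98 (reversed) before and 1.03 after depletion in epithelial-like cells, 1.04 in those with and 0.997 (reversed) in those without CRE-ERT2, 0.66 in fibroblast-like and 0.39 in neutrophil-like cells. Without Cenpa, an alternative added after seeing the data, the mitosis ratio of neutrophil-like cells was 0.27.

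Members at least 2-fold higher before depletion numbered 2; they were 0 with equal weight per cell, a minimum of 20 CPM or a pseudocount of 5, 1 in cells with CRE-ERT2, 12 in cells without it, and, in cells of at least 15000 UMIs (added after seeing the data), 5 in all, 1 with and 15 without CRE-ERT2. Members 2-fold lower numbered 0; they were 1 with equal weight and 4 with CRE-ERT2, also at 15000 UMIs. After depletion the 4 higher members were 0 at 20 CPM, 1 with a pseudocount of 5, 0 with and 11 without CRE-ERT2, and 2, 0 and 8 at 15000 UMIs, and 1 was lower with CRE-ERT2 in either set. The mitosis median before depletion was 0.17 with equal weight, −0.31 (reversed) with and 1.30 without CRE-ERT2, and −0.29 (reversed) and 1.71 at 15000 UMIs; after depletion it was 0.12 with and 1.19 without CRE-ERT2, and 0.10 with it at 15000 UMIs. The cause was not tested. TMM scaling moved the median of all genes before depletion from 0.08 to −0.04. No paired analysis was possible because each group has 1 library. Thinning left out 13 to 328 epithelial-like cells per library for low depth, and the KPF1F2 shares before depletion rest on 185 cells because 198 were kept in that class.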
